A study of Drosophila melanogaster with 2 samples.

Results

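The genes described here encode the proteins of the small subunit (40S) of the cytosolic ribosome of the fruit fly Drosophila melanogaster. They were chosen by name, as the protein-coding genes whose symbol begins with RpS in the Ensembl BDGP6 annotation, without symbols that end in -like. This gave 37 of 13968 protein-coding genes on the chromosome arms. The data are chromatin immunoprecipitation followed by sequencing (ChIP-seq) of the protein encoded by CG5953. The single group consisted of whole embryos of the strain CG5953-GFP, collected between 0 and 24 h of age and carrying a CG5953-eGFP fusion, and the fusion protein was pulled down with an antibody against GFP. The labels name the pair of libraries biological replicates 1 and 2 of this group. They give neither the promoter nor the expression pattern of the fusion, and embryos were not sorted by cell type or stage. Control libraries were not analysed here, so no level in control samples can be set beside the values. Peak lists hold no reads, and library depth is therefore unknown.

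The small subunit binds messenger RNA, finds the start codon and holds the decoding site where codon and transfer RNA pair. It is built in the nucleolus on 18S ribosomal RNA, and its parts are needed in near-equal amounts. Many promoters of fly ribosomal protein genes start transcription within a stretch of pyrimidines, the TCT or polypyrimidine initiator, in place of the standard initiator, and loss of a single copy of many of these genes gives the Minute phenotype of slow growth and short bristles.

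The promoters printed first are those of the 5 RpS genes that hold the word GCAGCCAAC within 50 bp of the summit of the peak, among them the 3 RpS genes with the strongest peaks. The word was picked after the sequences and the values had been seen, so its counts are a description and were not tested. Each sequence has 100 bases of the Release 6 genome, printed 5′ to 3′ on the strand of the gene, with the transcription start site (TSS) nearest the summit at base 61. Capitals mark the word, which in RpS27 lies on the opposite strand and is therefore printed as its reverse complement. The stretches lie at 3R:25247475-25247574 on the minus strand for RpS27, at X:9554563-9554662 on the plus strand for RpS28b, at 2L:2856010-2856109 on the plus strand for RpS21, at X:16637834-16637933 on the plus strand for RpS19a and at X:7901292-7901391 on the minus strand for RpS6.
RpS27: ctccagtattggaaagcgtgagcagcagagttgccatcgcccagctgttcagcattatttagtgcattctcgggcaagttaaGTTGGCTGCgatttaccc
RpS28b: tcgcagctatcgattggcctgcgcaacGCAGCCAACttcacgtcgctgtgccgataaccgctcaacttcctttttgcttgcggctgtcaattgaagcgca
RpS21: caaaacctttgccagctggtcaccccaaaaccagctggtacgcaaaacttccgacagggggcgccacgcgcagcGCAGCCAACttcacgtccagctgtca
RpS19a: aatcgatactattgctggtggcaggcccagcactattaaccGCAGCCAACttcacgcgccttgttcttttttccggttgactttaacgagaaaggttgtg
RpS6: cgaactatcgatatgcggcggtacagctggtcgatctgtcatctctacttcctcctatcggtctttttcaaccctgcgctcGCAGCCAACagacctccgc

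The next 3 promoters show another element beside a called peak. Capitals mark the full DRE, TATCGATA, the site bound by the transcription factor DREF, which drives many growth and replication genes in flies. The stretch of RpS6 printed above also holds the full DRE, and those of RpS28b and RpS19a hold its core ATCGAT, all unmarked there. Base 61 is again the TSS. The stretches lie at 3L:13023292-13023391 on the plus strand for RpS12, at 3R:11216248-11216347 on the minus strand for RpS25 and at 3R:9778037-9778136 on the plus strand for RpS29.
RpS12: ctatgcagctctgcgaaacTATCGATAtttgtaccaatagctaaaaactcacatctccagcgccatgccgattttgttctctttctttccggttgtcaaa
RpS25: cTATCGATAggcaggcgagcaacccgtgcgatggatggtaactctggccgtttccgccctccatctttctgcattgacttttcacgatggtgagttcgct
RpS29: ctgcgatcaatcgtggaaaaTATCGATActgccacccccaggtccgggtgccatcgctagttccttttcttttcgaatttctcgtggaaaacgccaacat

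The last set shows called and uncalled promoters with a match to the same initiator at the TSS printed. Capitals mark the TCT initiator, searched as TCTTTT on the strand of the gene, with C also allowed as its first and as its last base, and overlapping matches run together. RpS4 and RpS15Aa carried a called peak, whereas RpS3 and RpS9 carried none in the conservative list described below. The stretches lie at 3L:13041741-13041840 on the plus strand for RpS4, at X:13337599-13337698 on the minus strand for RpS15Aa, at 3R:23358752-23358851 on the plus strand for RpS3 and at 3L:9511492-9511591 on the minus strand for RpS9.
RpS4: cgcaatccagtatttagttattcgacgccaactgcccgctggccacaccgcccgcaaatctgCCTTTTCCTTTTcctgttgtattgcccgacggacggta
RpS15Aa: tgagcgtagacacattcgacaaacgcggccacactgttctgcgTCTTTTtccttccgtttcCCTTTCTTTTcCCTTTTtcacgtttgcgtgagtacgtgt
RpS3: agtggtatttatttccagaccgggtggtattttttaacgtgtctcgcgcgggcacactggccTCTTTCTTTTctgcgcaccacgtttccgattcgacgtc
RpS9: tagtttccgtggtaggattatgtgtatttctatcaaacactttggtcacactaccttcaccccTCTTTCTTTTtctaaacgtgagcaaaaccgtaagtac

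A peak of the tagged protein was called at 19 of the 37 RpS genes (51.4%; Clopper-Pearson 95% interval 34.4 to 68.1%, which covers counting error only), against 11.3% of all protein-coding genes. A gene was called bound when the highest point of a peak, its summit, was no farther than 500 bp from 1 of the TSS annotated for it. This count is from the conservative list of both libraries, which holds 3016 peaks that passed the authors' limit on the IDR, the irreproducible discovery rate, which is low for peaks that rank alike in separate lists. The optimal list, also from both libraries, had peaks at 18 RpS genes (48.6%), against 12.1% of all protein-coding genes. Replicate 1's own list had peaks at 16 (43.2%), against 8.09%, and replicate 2's own list also had peaks at 16 (43.2%), against 7.35%. In both replicates' own lists at once, 13 RpS genes had a peak (35.1%), against 5.41% of all protein-coding genes. In each of these 5 counts the RpS share was above the share of all protein-coding genes.

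The replicates differed at 6 RpS genes. Replicate 1's list alone held a peak at 3 of them, among them RpS9 and RpS20, and replicate 2's list alone held one at 3, among them RpS25 and RpS27A. Of the 19 genes bound in the conservative list, 13 were in both replicates' own lists and 3 in 1 of them. RpS5a, RpS14b and RpS6 were in neither replicate's own list, so their calls rest on the list made from both libraries. Over all 4 lists of called peaks, 22 of the 37 genes had a peak in at least 1, against 13.7% of all protein-coding genes.

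The genes of the large subunit (RpL) and of the small subunit of the mitochondrial ribosome (mRpS) were set beside them. A peak was called at 30 of 50 RpL genes (45.2 to 73.6%) and at 6 of 26 mRpS genes (8.97 to 43.6%). The interval of the RpS share overlaps both. These differences were not tested.

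The 3 strongest peaks at RpS genes lay at RpS27, RpS28b and RpS21. RpS27 encodes a zinc-binding protein of the subunit and lies at 3R:25245955-25247514 on the minus strand (dm6). Its peak had a signal of 305.7, in the authors' own unit, whose definition the files do not give. In the replicates' own lists the signal at RpS27 was 136.4 in replicate 1 and 175.1 in replicate 2. Its peak ranked 128 by signal among the conservative peaks, and its summit lay 5 bp upstream of the TSS.

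RpS28b, at X:9554623-9555661 on the plus strand, encodes a protein near the exit of the mRNA channel. Its signal was 262.0, with 107.4 in replicate 1 and 152.4 in replicate 2, and its summit lay 18 bp upstream of the TSS. RpS21, at 2L:2856070-2857029 on the plus strand, encodes a eukaryote-specific protein whose loss in flies leads to overgrowth of the blood-forming organs. Its signal was 209.8, with 97.1 in replicate 1 and 115.8 in replicate 2, and its summit lay 3 bp upstream of the TSS. All 3 genes were called in each of the 4 lists and had the higher signal in replicate 2.

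RpS12, which flies need for the elimination of Minute cells by their neighbours, had a signal of 172.8 (76.3 in replicate 1 and 90.6 in replicate 2). RpS4, which binds 18S ribosomal RNA early in assembly, had 145.9 (51.8 in replicate 1 and 92.5 in replicate 2). RpS25, used by some viral internal ribosome entry sites, had 126.1. Its ranked peak in replicate 1 had a signal of 49.7 with an IDR of 0.839 and was not called there, whereas replicate 2 had 73.0. In the list of both libraries these 3 genes lay below the 3 strongest and above all other RpS genes in signal. Neither replicate kept all 3 above the other RpS genes. RpS19a (58.2) was above RpS4 and RpS25 in replicate 1, and RpS7 (83.8) was above RpS25 in replicate 2.

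The next 4 members lay within a narrow range of signal, and their order is not one the replicates repeat. RpS7 had 119.7 (42.3 in replicate 1 and 83.8 in replicate 2). RpS23, whose protein lines the decoding site, had 118.5 (41.3 and 82.5 in the same order). RpS19a had 118.2 (58.2 and 60.8); its human counterpart is mutated in Diamond-Blackfan anaemia. RpS10b, whose human counterpart is ubiquitinated on collided ribosomes, had 117.1 (44.9 and 71.1). RpS19a was the highest of these 4 in replicate 1 and the lowest in replicate 2.

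The other 9 bound genes had signals between 54.3 at RpS6 and 108.4 at RpS16. RpS6 encodes the substrate of S6 kinase in nutrient signalling. RpS27A, which encodes a fusion of ubiquitin to a ribosomal protein, had 98.0, with 35.9 in replicate 1, where it was not called (IDR 0.11), and 64.0 in replicate 2.

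The plot of signal by member shows 35 of the 37 genes at once, with the called genes above the dashed line.

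**Figure D1:**
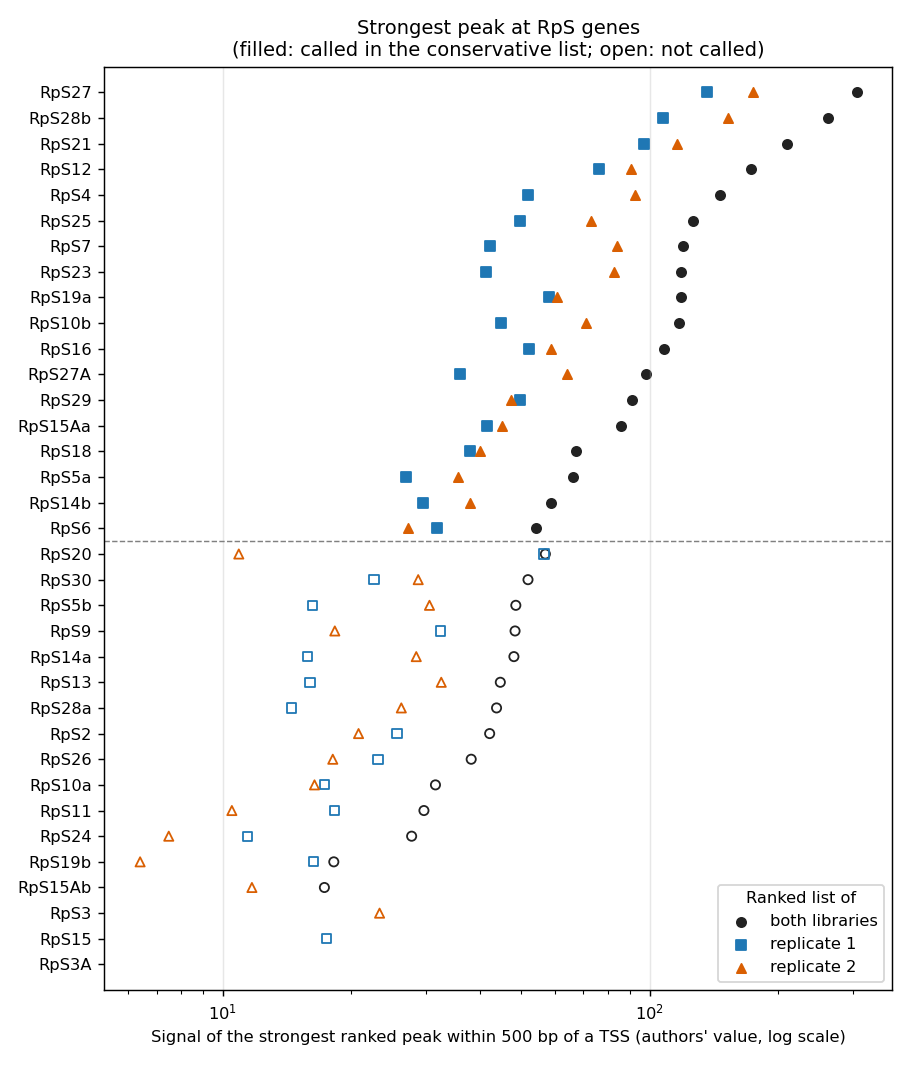
Signal of the strongest ranked peak within 500 bp of a TSS of 35 RpS genes (x axis, authors' value, log scale), in the list of both libraries (circles), replicate 1 (squares) and replicate 2 (triangles). Filled symbols mark the 18 of them called in the conservative list, open symbols the other 17; RpS27 stands highest at 305.7, and RpS3A has no ranked peak and no symbol.

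By signal, the peaks at RpS genes ranked from 105 (RpS27) to 1513 (RpS6) among the 1573 bound protein-coding genes. Their median signal was 117.1 (quartiles 79.6 to 136.0, n = 19 genes), against 94.2 (70.2 to 144.9, n = 1554) at all other bound protein-coding genes. Here and below, all other protein-coding genes are those outside RpS, so they include RpL and mRpS genes. The quartile ranges overlap, and the highest signal at any other gene was 1168.2. Bound RpL genes had a median of 120.6 (99.8 to 171.8, n = 30) and bound mRpS genes one of 219.4 (103.6 to 612.7, n = 6). Of the 19 bound RpS genes, 14 had a signal above 83.0, the median of the conservative list. In the replicates' own lists the order of the medians was not shared. The RpS median was 50.7 against 66.2 at all other bound genes in replicate 1, and 72.1 against 57.5 in replicate 2.

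The same imbalance between the libraries showed gene by gene. At 16 of the 19 bound RpS genes the signal was higher in replicate 2, with a median ratio of replicate 2 to replicate 1 of 1.28 (quartiles 1.07 to 1.53). At all other bound protein-coding genes with a peak in both ranked lists, 38.0% were higher in replicate 2 and the median ratio was 0.897 (0.689 to 1.13, n = 1546). Bound RpL genes had a median ratio of 1.22, with 22 of 30 higher in replicate 2, whereas all 6 bound mRpS genes were lower in replicate 2 (median ratio 0.847). The largest ratio among the bound RpS genes was 2.0, at RpS23. Depth and recovery of each library are unknown, and their part in the ratios was not tested. Across the 19 genes Spearman's rho between the replicates was 0.767, and Pearson's r of the log2 signals was 0.858. This is a description only: the genes share both libraries and were called on the repeat of their ranks.

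**Figure D2:**
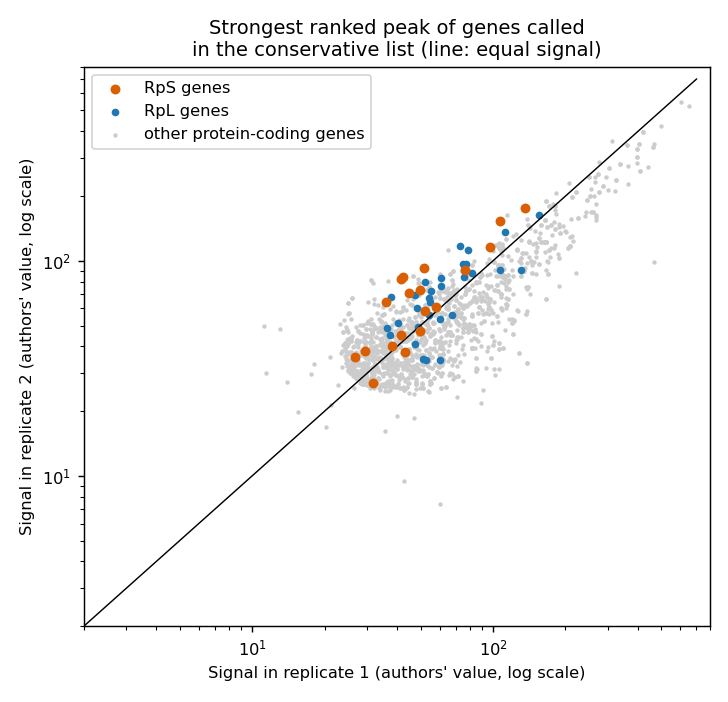
Signal of the strongest ranked peak in replicate 1 (x axis) and replicate 2 (y axis), both in the authors' value on log scales, for genes bound in the conservative list; the line marks equal signal, and the grey points leave out RpS and RpL genes. Of the 19 RpS genes, 16 lie above the line.

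The summits at RpS genes lay close to the TSS. The median summit was 16 bp upstream (quartiles -33.5 to 11.5 bp, negative meaning upstream), against 124 bp upstream (-211.0 to -30.0 bp) at all other bound protein-coding genes. Within 50 bp of the TSS lay 15 of the 19 RpS summits (78.9%), against 233 of the 1554 others. RpL genes shared this position, with a median of -28 bp and 76.7% within 50 bp. None of the 6 mRpS summits lay within 50 bp, and their median was -156 bp. The RpS summits ran from 96 bp upstream to 35 bp downstream, at RpS18. Among the 4 that lay farther than 50 bp were RpS25 (-55 bp), RpS5a (-75 bp) and RpS14b (-89 bp). No other gene had a TSS nearer to any of the 19 RpS summits. The other bound genes, in contrast, include some that share a peak lying nearer to the TSS of another gene. With the nearest TSS only, all bound protein-coding genes fell from 1573 to 1199. How far this widens the difference in position was not tested.

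**Figure D3:**
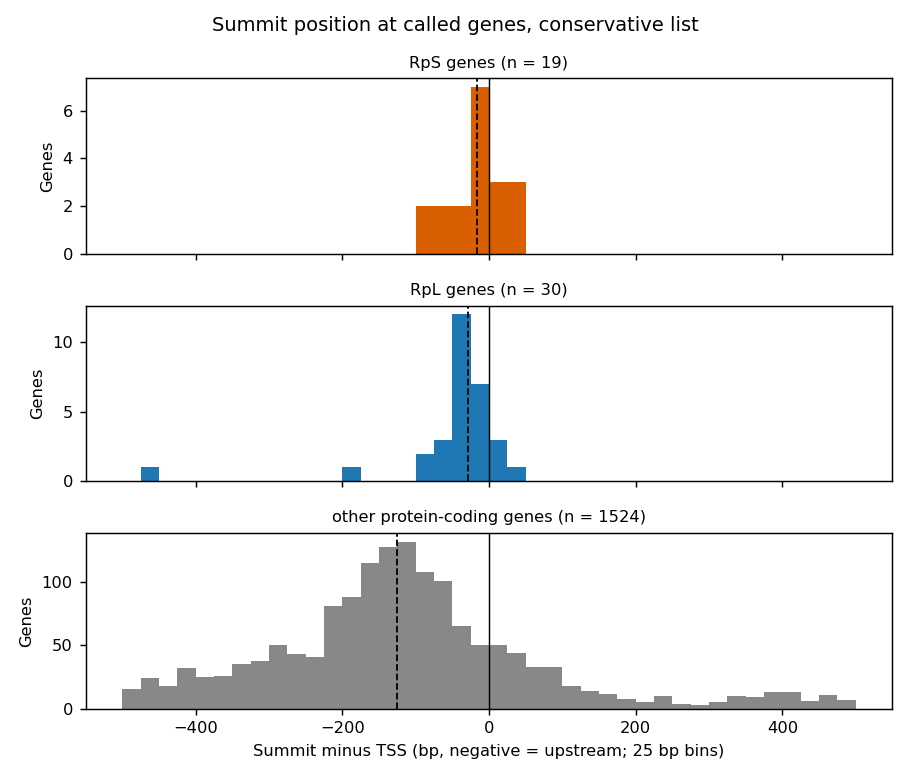
Distance of the summit from the nearest TSS of the gene in bp (x axis, negative is upstream) and number of genes per 25 bp (y axis) for genes bound in the conservative list: RpS genes, RpL genes and the remaining protein-coding genes. Dashed lines mark the medians; the RpS summits all lie between -96 and 35 bp.

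In replicate 1's own list the median RpS summit was also 16 bp upstream, and in replicate 2's own list it was 2 bp downstream, with 12 of 16 and 15 of 16 summits within 50 bp of the TSS. Chromatin was sheared to 200 to 800 bp per the labels, and peaks of the conservative list were mostly of 1 width, 296 bp, which 17 of the 19 RpS peaks had. The narrower ones were those of RpS27 (161 bp) and RpS28b (137 bp). Differences of a few bp between summits are therefore below what the fragments resolve. By annotation, 10 of the 19 summits fell in an exon that holds 5' UTR, 8 upstream of the gene and 1, at RpS18, in an intron.

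No summit at an RpS gene was nearer to the TSS of another gene. RpS27A was the only member with a tie, with Ip259, which has a TSS at the same distance from the summit. Another protein-coding TSS lay within 500 bp of 7 of the 19 summits, among them Nup37 beside RpS27, CG3104 beside RpS21, CG4820 beside RpS25, CG4294 beside RpS16, Ip259 beside RpS27A and plu beside RpS18. A peak at such a pair cannot be assigned to 1 of the genes from its position alone. A neighbour that starts on the opposite strand within 1 kb was found at 13 of the 19 bound RpS genes (68.4%) and at 8 of the 18 not bound (44.4%). The same share was 59.1% over all bound protein-coding genes and 36.2% over all protein-coding genes.

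In 6 cases the annotation holds a pair of paralogues for 1 subunit protein, and in each of the 6 pairs exactly 1 copy was bound. The bound copies were RpS5a, RpS10b, RpS14b, RpS15Aa, RpS19a and RpS28b, and those not bound were RpS5b, RpS10a, RpS14a, RpS15Ab, RpS19b and RpS28a. All 6 bound copies are on the X chromosome, whereas of the others only RpS14a is. RpS5b and RpS19b are known for their expression in the germline.

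The gap between the copies was wide in 4 pairs and narrow in the other two. For RpS28b the ranked signal was 107.4 in replicate 1 and 152.4 in replicate 2, against 14.5 and 26.2 at RpS28a. For RpS19a it was 58.2 and 60.8, against 16.3 and 6.4 at RpS19b. RpS10b had 44.9 and 71.1, against 17.3 and 16.4 at RpS10a. In each of these pairs both replicates had the higher signal at the bound copy. The call was made from these same libraries, so this order is partly set by it. RpS15Aa had 41.5 and 45.0, whereas RpS15Ab had no ranked peak in replicate 1 and 11.7 in replicate 2. Each value is that of the strongest peak within 500 bp, and at the unbound copies this peak often lay far from the TSS. It lay at 367 bp in replicate 1 and -33 bp in replicate 2 at RpS28a. In the same order it lay at 403 and 132 bp at RpS19b and at 286 and 272 bp at RpS10a. At RpS15Ab it lay at -247 bp in replicate 2.

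RpS5a and RpS14b, the bound copies of the narrow pairs, are also those called in the conservative list alone. RpS5a had 26.8 in replicate 1 and 35.6 in replicate 2, against 16.2 and 30.5 at RpS5b. These peaks lay at -66 and -37 bp from the TSS at RpS5a, but at 282 and 375 bp at RpS5b. The values of this pair thus compare unlike positions. RpS14b had 29.5 and 38.0, against 15.8 and 28.4 at RpS14a. Here the peaks lay at -130 and -67 bp at RpS14b and at 11 and 5 bp at RpS14a. RpS14a and RpS14b lie in tandem on the X chromosome, RpS14a at X:7933742-7934677 and RpS14b at X:7934898-7935792. Reads from near-identical copies can be shared or lost in mapping, and how the authors treated them is not given in the sources used here.

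**Figure D4:**
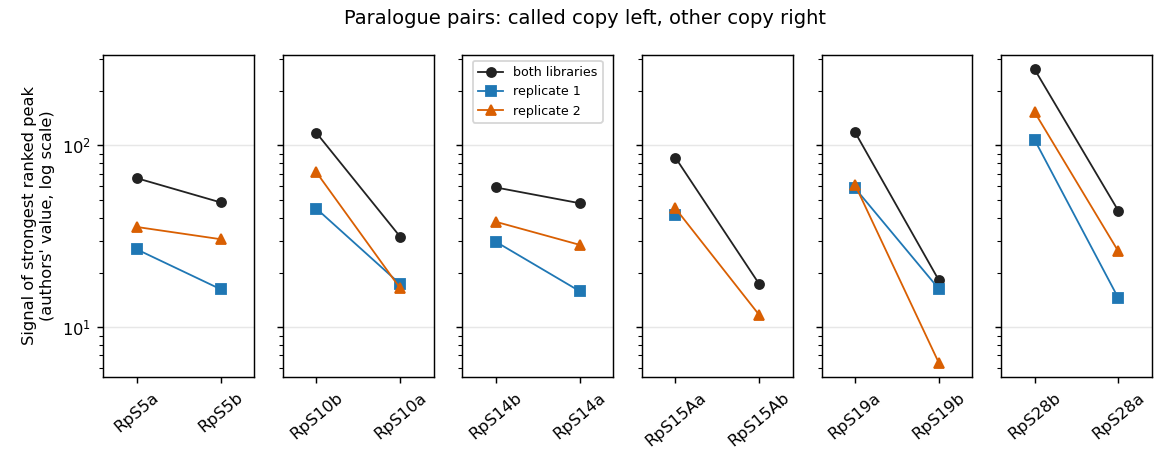
Signal of the strongest ranked peak (y axis, authors' value, log scale) at the bound copy (left) and the other copy (right) of the 6 RpS paralogue pairs, in the list of both libraries (circles), replicate 1 (squares) and replicate 2 (triangles). Every line falls to the right, most steeply for RpS28b and RpS19a, and RpS15Ab has no replicate 1 point. The left copy is the one called from these same libraries.

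Grouped by chromosome, 7 of 8 RpS genes on the X were bound, and RpS14a was the exception. On the autosomal arms a peak was called at 2 of 5 RpS genes on 2L, 3 of 7 on 2R, 2 of 4 on 3L and 5 of 12 on 3R. Over all protein-coding genes the X had a lower share (9.52%) than 2L (11.7%), 2R (10.9%), 3L (12.2%) and 3R (11.8%). Of the 7 bound genes on the X, 6 are copies of paralogue pairs, so location and copy cannot be told apart. RpS3A, the only RpS gene on chromosome 4 and the gene of a classical Minute locus, had no ranked peak within 500 bp in any list, and the nearest ranked summit was 35710 bp away. On chromosome 4 a peak was called at 2 of 80 protein-coding genes.

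Groups by role in the subunit had counts close to each other. A peak was called at 10 of 18 genes for proteins of the head of the subunit and at 9 of 19 for those of the body and platform. Of the proteins also found in bacteria, 7 of 17 genes were bound, among them RpS16, whose tail reaches the transfer RNA, and RpS23. Of those shared by archaea and eukaryotes or found in eukaryotes only, 12 of 20 were bound. Both genes for fusions with ubiquitin or a ubiquitin-like protein had a ranked peak, but only RpS27A was called, and RpS30 was not (signal 51.9, IDR 0.019).

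Gene structure was set beside the calls. Of genes with more than 1 annotated TSS 14 of 19 were bound (73.7%), against 5 of 18 with 1 TSS (27.8%). Over all protein-coding genes the shares were 20.0% and 8.13%. With 1 TSS per gene the same 19 RpS genes were bound, against 9.64% of all protein-coding genes. Among genes that host snoRNA genes, which guide modification of ribosomal RNA, 8 of 12 were bound, against 11 of 25 without. Over all protein-coding genes the shares were 40.5% of 84 such hosts, which include the 12 RpS hosts, and 11.1% of the others. RpS5a held the most, with 14 snoRNA genes. The median length was 1.56 kb at bound and 1.13 kb at other RpS genes, whereas all bound protein-coding genes had 3.52 kb and all protein-coding genes 2.16 kb.

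The 18 RpS genes without a called peak were read in the ranked lists. A ranked peak, that is one listed by the authors whether or not it passed the limit, lay within 500 bp of 15 of them in the list of both libraries. This share (83.3%) is near the 80.6% of all other protein-coding genes that were not bound. The median signal at these 15 RpS genes was 43.8 (quartiles 30.6 to 48.5), against 28.3 (20.1 to 38.1) at all other protein-coding genes that were not bound and had such a peak. Genes without any ranked peak are left out of these medians, 3 of the 18 RpS genes and 2401 of the 12377 others.

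RpS20 had the highest ranked signal among the RpS genes not called. It had 57.0 in the list of both libraries with an IDR of 0.617, and was called in the optimal list. The signal of its strongest ranked peak was 56.6 in replicate 1 and 10.9 in replicate 2, the widest gap between the libraries among RpS genes. These peaks lay at -132 bp and 166 bp from the TSS, so the values are not of 1 site. RpS30 lay outside the authors' limit of 0.01 with 51.9 and an IDR of 0.019, while RpS6 was inside it with 54.3 and an IDR of 0.00727.

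RpS9 had a called peak in replicate 1 of a signal of only 13.7, 204 bp from the TSS, and a stronger ranked peak there (32.4) that was not called. RpS2, known in flies as string of pearls, had 42.2 with an IDR of 0.0434, and RpS13, a Minute gene, had 44.7 with an IDR of 0.579. The lowest ranked signals were at RpS19b (18.2) and RpS15Ab (17.3). RpS3, whose protein lies at the entry of the mRNA channel, and RpS15 had no ranked peak in the list of both libraries. RpS3 had 1 in replicate 2 alone (23.3) and RpS15 had 1 in replicate 1 alone (17.5), at 500 and 495 bp from the TSS.

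Promoter elements were counted in bound and unbound RpS genes and in other genes, as a description without a test. The TCT initiator had nearly the same share in bound and unbound members. Promoters were taken from 250 bp upstream to 50 bp downstream of 1 main TSS per gene, 300 bases in all. The TCT initiator, searched as above within 50 bp of that TSS, was found at 13 of 19 bound RpS genes (68.4%) and at 12 of 18 not bound (66.7%). It was found at 12.7% of all other bound and 10.8% of all other protein-coding genes, which include the RpL genes, and at 86.0% of RpL genes. Without the RpL genes the shares were 11.3% of the bound and 10.6% of all. The standard initiator, TCAGT or TCATT on the same strand and in the same window, was found at 1 bound RpS gene (RpS21) and 3 not bound, against 36.0% of all other protein-coding genes. Within 100 bp of the summit rather than of the main TSS, 18 of the 19 bound RpS genes had a match to the TCT initiator. The same window around the summit had a match at 93.3% of bound RpL genes and at 26.8% of all other bound genes. The median distance of the summit from the TSS was 25 bp at RpS genes and 144.5 bp at all other bound genes. A window around the summit therefore leaves out the TSS more often at the other genes. RpS4 counts as without the element at its main TSS, and its printed sequence is that of its other TSS, nearest the summit.

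The full DRE, TATCGATA on either strand, was found at 8 of 19 bound RpS genes (42.1%) and at 5 of 18 not bound (27.8%), against 11.3% of all other bound and 9.16% of all other protein-coding genes. The core ATCGAT, which every full site contains, was found at 10 and 6, against 23.6% and 23.0%. RpS12, RpS25 and RpS29, printed above, are among the bound genes with the full site. The site GAGAG of GAGA factor, on either strand, was found at 3 bound and 1 unbound RpS gene, against 36.0% of all other bound and 30.2% of all other genes.

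**Figure D5:**
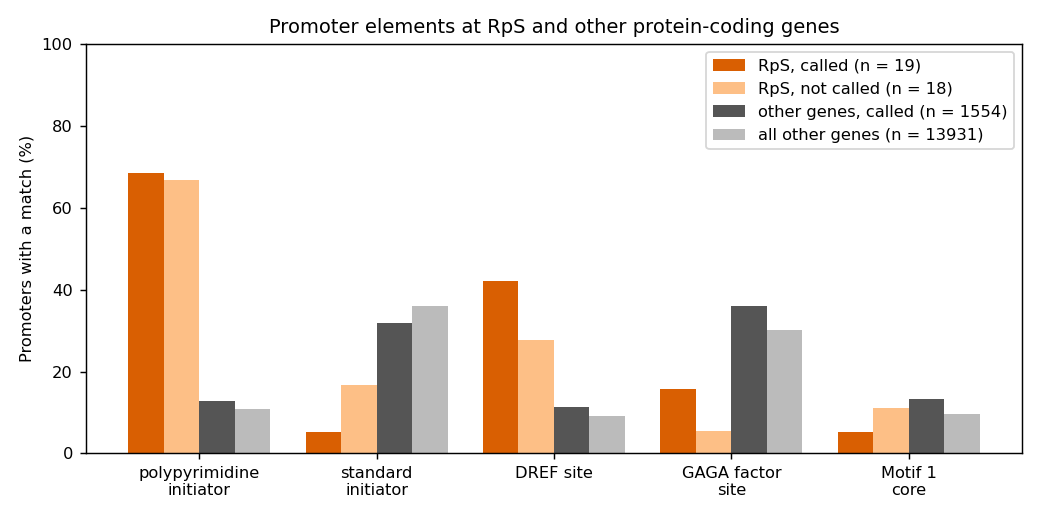
Share of promoters with a match in percent (y axis, from 0) for 5 elements (x axis) in bound RpS genes, RpS genes not bound, all other bound protein-coding genes and all other protein-coding genes. The polypyrimidine (TCT) initiator is at 68.4 and 66.7% in the RpS groups, against 12.7 and 10.8% in the others; the DREF site is the full DRE.

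The E-box CAGCTG was found at 5 bound RpS genes (RpS27, RpS4, RpS21, RpS14b and RpS6) and at 0 of those not bound, against 25.7% of all other bound and 17.8% of all other genes. The E-box CACGTG was found at 0 RpS genes, against 4.21% of all other genes. The TATA box, TATAAA on the strand of the gene, was found at 9 bound and 4 unbound RpS genes, against 32.1% of all other genes. Only 3 RpS promoters had it within 100 bp of the TSS, so most of these matches lay farther upstream. Motif 1 core, TCACACT, was found at 1 and 2, the CTCF core AGGTGGC at 0 and 1, TGATAA at 2 and 3 and CACACACA at 2 and 0, each on either strand, against 9.51%, 3.46%, 22.8% and 4.21% of all other genes. Median GC content was 38.7% in bound and 35.8% in unbound RpS promoters, against 38.0% in all others. A match says that these letters are present, not that a factor binds them.

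The word GCAGCCAAC, on either strand, was found in the promoters of 5 bound and 0 unbound RpS genes and in 0.409% of all other protein-coding promoters (57 of 13931). These 57 include 2 of the 50 RpL promoters. Its centre lay 11 bp from the summit at RpS28b, 14 bp at RpS6, 21 bp at RpS21, 31 bp at RpS27 and 42 bp at RpS19a. In RpS28b, RpS21 and RpS19a the word was followed by the same 6 bases, TTCACG. The word with this extension was found in these 3 promoters and in 0 of the 13931 other protein-coding promoters. Signals at the 5 genes spanned 54.3 to 305.7 with a median of 209.8, against 58.7 to 172.8 with a median of 103.2 at the 14 bound RpS genes without the word. The word was picked after these signals had been seen, and the 6 bases come from the same promoters. The signals and the count of the extension are therefore a description and were not tested. Among conservative peaks away from RpS genes, 6 had the word within 50 bp of the summit, with a median signal of 104.3 (quartiles 70.7 to 112.5), against 82.8 (64.6 to 123.5) at the 2990 without it, so the ranges overlap. None of the other motifs searched is contained in the word.

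Other genes of the small subunit and its assembly were taken from a list of 20 symbols, of which 16 were found in the annotation. The 2 structural ones were bound: sta, which encodes the subunit protein SA, had a signal of 57.6 (29.9 in replicate 1 and 27.4 in replicate 2) and was called in the conservative list alone. Rack1, which encodes a signalling scaffold on the head of the subunit, had 105.0 (46.3 and 62.6) and was called in all 4 lists, with its summit 18 bp downstream of the TSS. Of the 14 assembly and nucleolar factors found, 2 were bound, NHP2 and CG7246, which were named after their values were seen. This share lies near the 11.3% of all protein-coding genes called.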

How the data were processed

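ChIP-seq peaks of CG5953-eGFP were analysed from 8 deposited lists on dm6: a called and a ranked list for each replicate and for 2 sets from both libraries. Each has the authors' signal per peak, whose unit is not stated. The deposited score rescales the IDR up to 1000, and the lowest score of a called peak was 830. The deposited ranked lists hold the −log10 of the IDR, from which IDR values were computed. Neither the aligner nor the peak caller is given in the sources used here.

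Summits were placed on the Ensembl BDGP6 annotation (release 115) with Python 3.11.15, numpy 2.4.6, pandas 2.3.3, scipy 1.17.1 and matplotlib 3.10.9. Transposable elements, pseudogenes and unplaced scaffolds were left out. The strongest peak with a summit within 500 bp of a TSS stands for each gene. The placement was tested on simulated data. Sequences are from the Release 6 genome as held by RefSeq. Shares have Clopper-Pearson intervals.

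There was 1 group of 2 replicates and control libraries were not analysed here, so no comparison between groups was made and no p-value is given. The genes, lists and 12 motifs were chosen with earlier results of these data known. Every RpS gene counts in the totals, but 2 are not reported here by name. The others could be named, with values per replicate for the 10 strongest, the paralogues and the genes called in 1 replicate alone; other genes only where a TSS lay within 500 bp of an RpS summit, plus sta and Rack1. NHP2 and CG7246 fall outside this rule and were named after their values were seen. Alternatives were other distances, lists, thresholds, TSS choices, single replicates and motif windows.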

Additional observations from a re-analysis of the deposited data

How the results depend on the processing

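The count of bound RpS genes stayed between 13 and 20 under the alternatives tried, against 19. A distance of 250 bp gave 19 (against 8.73% of all protein-coding genes) and 1000 bp gave 20 (13.8%), with RpS19b added. Each replicate alone gave 16, with 14 of the 19 genes kept in replicate 1 and 15 in replicate 2. Peaks present in both replicates' lists gave 13. The median signal of bound RpS genes was 50.7 to 72.1 when 1 replicate was left out, against 117.1, and the median summit position was -16 to 2 bp. Several motif counts changed with the window. Within 100 bp of the TSS, 3 RpS promoters had a TATA box (13 in the 300 bp promoter), 1 had CACGTG (0), 2 had the GATA site TGATAA (5) and 1 had the CA repeat (2). Within 100 bp of the summit, 1 bound gene had a TATA box (9), 2 had CACGTG (0), 1 had TGATAA (2) and 1 had the CA repeat (2). The initiators were searched in the same window around the TSS in both settings. The 300 bp promoter reaches 250 bp upstream of the TSS, so these windows cover different stretches. No cause beyond this was tested. No paired analysis was possible because there is only 1 group. Depth is unknown, so a gene without a called peak is not shown to be free of the protein.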
